A study of Arabidopsis thaliana and Boechera depauperata with 12 samples.

Results

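The *B. depauperata* genes lowered by both heat regimes were 197 of the 27416 genes counted in this species. They were chosen by their values: a gene entered when its lowest CPM in the 2 control libraries was at least 10 and at least 3 times its highest CPM in the 4 heat libraries. CPM here is a gene's share of its library's column total, in parts per 1000000. Both heat regimes against control were therefore used in the choice, so the levels below describe these genes and are no test of a fall.

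Total RNA of *Boechera depauperata* and *Arabidopsis thaliana* was sequenced in 12 libraries, 2 per group and 3 groups per species. In the basal heat stress (B/HS) group plants went straight from 22 °C to 3 h at 38 °C. In the acquired heat stress (A/HS) group they had 1 h at 38 °C, 1 h of recovery at 22 °C and 3 h at 43 °C, and control plants stayed at 22 °C. No genotype, strain or age was given in the labels, and all groups share the same RNA kit, library kit and sequencer. The methods describe the 2 libraries of a group as independent biological replicates. *B. depauperata* is polyploid and its reads were assigned to genes of a relative, *Boechera stricta*, so reads of duplicated gene copies fall on 1 gene identifier.

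Heat stress in plants is best known for the genes it raises, the chaperones driven by heat shock factors. Transcripts of other processes, such as growth, secondary metabolism and carbon use, are commonly lowered in the same hours. A stretch of milder heat before a stronger one gives acquired thermotolerance, which is why the 2 regimes are set side by side.

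Column totals were between 3869082 and 7666352 counts in *B. depauperata* and between 11819511 and 15297546 in *A. thaliana*. The labels name root as the tissue, and the marker genes in *A. thaliana* went against it. The 10 leaf markers summed to between 5401 and 10376 TMM-normalized CPM in the 6 *A. thaliana* libraries, with none at 0. The 12 root markers summed to 57.1 and 65.3 in B/HS, 43.6 and 108 in A/HS, and 201 and 240 in control. *IRT1* and *TIP2-3*, a root iron transporter and a root aquaporin, were at 0 in both B/HS and both control libraries but not in A/HS. The root markers at 0 numbered 5 and 3 in B/HS, 2 and 0 in A/HS, and 5 and 2 in control. The root marker sum was thus lower in all 4 heat libraries than in control, and its part in the results below was not tested. In *B. depauperata* the gene paired with *RCA*, which activates Rubisco in leaves, had 4053 and 5971 CPM in B/HS, 2499 and 1863 CPM in A/HS and 7608 and 5692 CPM in control. In such bulk samples, fewer cells of a type and less RNA per cell cannot be told apart.

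The members' identifiers carry no gene name in the files. A table of alternatively spliced genes from the same study lists *B. depauperata* identifiers beside *A. thaliana* ones, and it paired 1671 genes one to one. Of the 197 members 8 were so paired and 189 were not, so the others are given by identifier alone. Of the 10901 genes with at least 10 CPM in both control libraries, members included, 1331 were paired. Those 8 were listed because of their splicing in these samples, so they are not a random draw from the members.

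Together the 197 members held 0.259% and 0.365% of all counts in B/HS, 0.227% and 0.200% in A/HS, and 1.94% and 1.89% in control. The median member had 4.22 and 5.30 CPM in B/HS, 4.18 and 3.62 CPM in A/HS, and 28.8 and 29.9 CPM in control. The 4 heat libraries lay close together and the 2 control libraries apart from them, as the rule requires of each gene. Counts were small after heat: 12 and 8 members had 3 counts or fewer in the B/HS libraries, 9 and 22 in the A/HS libraries, and 0 in either control library. Counts of exactly 0 occurred in 0 and 5 members in B/HS and in 1 and 5 in A/HS.

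**Figure D1:**
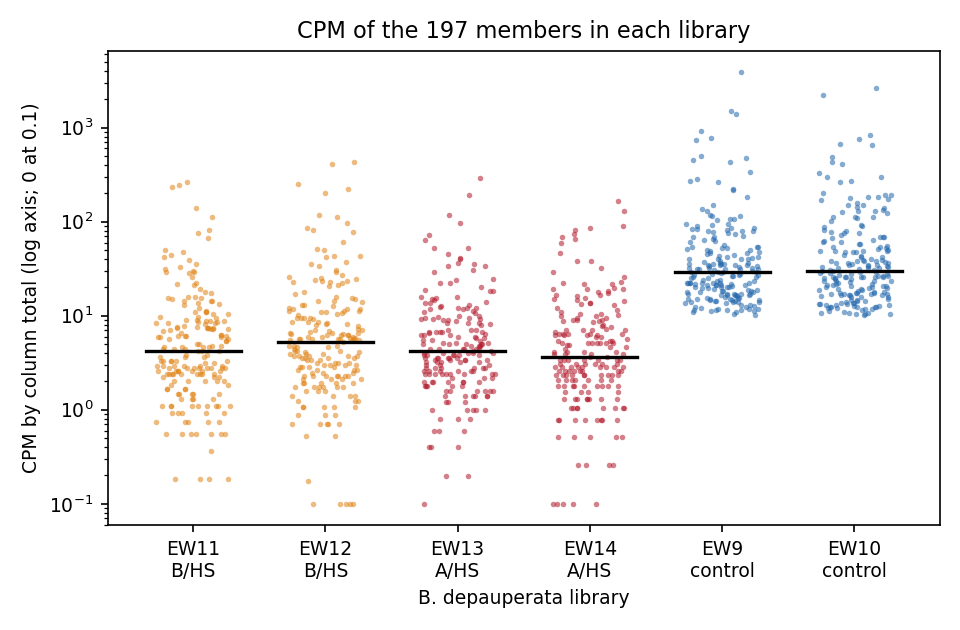
CPM of the 197 members (points, log axis, counts of 0 drawn at 0.1) in each *B. depauperata* library, with a black line at the median. The medians of the 4 heat libraries lie between 3.62 and 5.30 CPM and those of the control libraries at 28.8 and 29.9 CPM, a separation that the choice of genes fixes.

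Most members sat near the threshold. The ratio of lowest control to highest heat CPM had a median of 3.93 and ran to 36.7, with 107 members under 4, 90 at 4 or more, 48 at 5 or more and 8 at 10 or more. Just inside the ratio stood Bostr.7867s0268 with a ratio of 3.02 (highest heat 28.3 CPM, lowest control 85.3 CPM), Bostr.2128s0032 and Bostr.10273s0091, both at 3.04. Just outside stood Bostr.30275s0074 (highest heat 14.3 CPM, lowest control 42.9 CPM), Bostr.26675s0221 and Bostr.7155s0001, each at 2.99. At the level threshold, Bostr.10040s0232 and Bostr.20129s0038, both at 10.2 CPM in their lower control library, and Bostr.29827s0076, at 10.3 CPM, were inside. Bostr.9345s0073 and Bostr.7867s0710, both at 9.86 CPM, and Bostr.0556s0274, at 9.78 CPM, were outside.

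**Figure D2:**
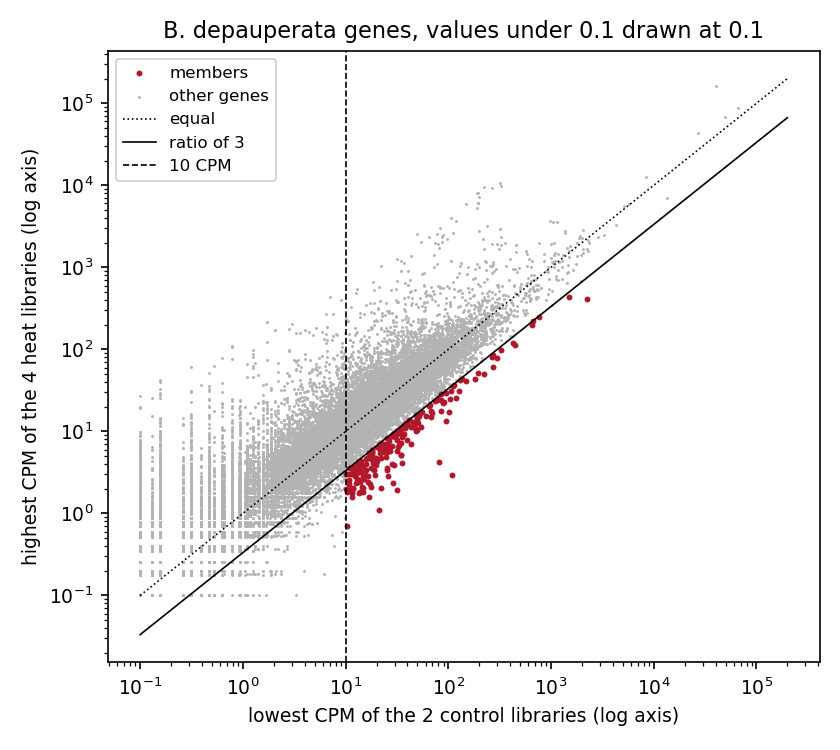
Highest CPM of the 4 heat libraries against the lowest CPM of the 2 control libraries for all 27416 *B. depauperata* genes (log axes, values under 0.1 drawn at 0.1), with the 197 members in red. Members lie right of the dashed line at 10 CPM and under the solid line at a ratio of 3, and the cloud of other genes meets that line without a gap, so that 107 members have a ratio under 4.

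How many genes qualify depended on the scaling. With column totals, the median gene of those with at least 10 CPM in both control libraries changed by -0.43 on the log2 scale in B/HS and by -0.65 in A/HS. After TMM normalization, which sets libraries to a common level for most genes, these medians were -0.03 and -0.05. With TMM-normalized CPM in the same rule 64 genes qualified, and all 64 were among the 197. The 3 most abundant genes took 20.3% and 23.9% of counts in B/HS, 21.4% and 30.2% in A/HS, and 20.3% and 17.2% in control, and with these genes left out of the totals 178 qualified, 159 of them members.

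In the edgeR fit, which uses TMM, all 197 members were tested, and their values relative to the median gene can be described. The median member changed by -2.18 on the log2 scale after B/HS (range -6.69 to -1.27, median SE 0.44) and by -2.24 after A/HS (range -6.21 to -1.10, median SE 0.45), against medians of 0.00 over all genes tested in either contrast. At an adjusted p under 0.05 and at least 4-fold, the threshold of the study's methods, 120 members were lower after B/HS, where 1.21% of all tested genes were called lower, and 117 after A/HS, where 2.72% were. With the adjusted p alone the counts were 175 after B/HS (2.44% of all tested) and 177 after A/HS (7.32%). Nothing is read from these counts, since the same libraries chose the genes.

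The most abundant member was Bostr.7128s0081. It had 265 and 414 CPM in B/HS, 52.2 and 129 CPM in A/HS, and 3874 and 2246 CPM in control. Every heat library was under every control library, and both A/HS libraries were under both B/HS libraries. The next identifier, Bostr.7128s0082, is one of the 3 most abundant genes of all. It had 65158 and 64138 CPM in B/HS, 65477 and 67527 CPM in A/HS, and 63687 and 49529 CPM in control, so it did not share that drop. Whether reads were assigned between the 2 identifiers was not tested.

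Bostr.7128s0655 came next, with 244 and 436 CPM in B/HS, 293 and 166 CPM in A/HS, and 1495 and 2665 CPM in control. Bostr.3640s0171 followed, with 140 and 201 CPM in B/HS, 97.0 and 46.3 CPM in A/HS, and 1380 and 656 CPM in control. In both the heat and control libraries were apart, while the 2 control libraries differed from each other by more than a factor of 1.5. The other genes of the 10 most abundant, among them the *IMS2* pair described below, averaged between 355 and 840 CPM in control. These 10 held 52.5% of the members' control CPM, whereas 62 members averaged under 20 CPM in control.

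The steepest drop in CPM was that of Bostr.3148s0211. It had 2.94 and 1.77 CPM in B/HS, 2.79 and 2.84 CPM in A/HS, and 108 and 182 CPM in control, which is 16 and 10 counts in B/HS, 14 and 11 in A/HS, and 688 and 1396 in control. The 4 heat libraries were within a factor of 2 of each other, and the lower control library was 36.7 times the highest of them. Bostr.7867s0076 had 2.75 and 4.24 CPM in B/HS, 1.79 and 1.81 CPM in A/HS, and 80.3 and 157 CPM in control, a ratio of 18.9. Bostr.26833s0873, with 1.10 and 0.88 CPM in B/HS, 0.40 and 0 CPM in A/HS, and 21.1 and 32.0 CPM in control, had a ratio of 19.2, which rests on 6 and 5 counts in B/HS and 2 and 0 in A/HS. Of these 3 genes the first and second kept 7 or more counts in every heat library. The next 7 by ratio (Bostr.14419s0045, Bostr.8169s0036, Bostr.10199s0144, Bostr.13129s0358, Bostr.0597s0011, Bostr.0556s0632 and Bostr.0597s0001) had ratios between 8.63 and 16.1. All 10 apart from Bostr.8169s0036, which fails the level minimum there, also qualified with TMM-normalized CPM.

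The rule used both control libraries, so the spread between them among the members is a description without a test. The members' median fold between EW9 and EW10, the control libraries, was 1.21. It was 1.19 for all genes with at least 10 CPM in both, members included. By more than 2-fold 23 members (11.7%) differed, against 3.89% of those genes, which were not matched to the members in level. The higher library was EW10 for 117 members and EW9 for 80. The widest was Bostr.0597s0014, at 18 and 11 counts in B/HS, 6 and 2 counts in A/HS, and 300 and 96 counts in control (47.0 and 12.5 CPM), a gene singled out after its values were seen.

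The members lay on 76 scaffolds. Scaffold 7867 carried 12 of them, and 32 scaffolds carried 1 each. Next-door identifiers were both members in 5 pairs. The number of genes on each scaffold was not set beside these counts, so no clustering is read from them. In the pair Bostr.1460s0043 and Bostr.1460s0044, the first had 2.39 and 7.06 CPM in B/HS, 3.39 and 6.46 CPM in A/HS, and 27.4 and 25.6 CPM in control, and the second had 7.34 and 10.4 CPM in B/HS, 4.18 and 3.88 CPM in A/HS, and 53.2 and 49.6 CPM in control. Both had closely similar control libraries. The other 4 pairs were Bostr.10199s0131 and 10199s0132, Bostr.10199s0143 and 10199s0144, Bostr.19424s0246 and 19424s0247, and Bostr.6864s0174 and 6864s0175. Near-identical neighbouring copies can exchange reads in counting, and how multiply mapped reads were treated was not given in the sources used here.

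The 8 members with an *A. thaliana* name fall into a few processes: glucosinolate synthesis (*IMS2*), carbohydrate metabolism (*PHS2*, *BGLU44*), the cell wall (AT1G09910), proteolysis (*LON2*, *scpl35*), phosphate removal (AT2G39920) and signalling at the cell surface (AT1G56140). Roles are those known in *A. thaliana*.

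Bostr.10199s0143 is paired with *IMS2*, a methylthioalkylmalate synthase that lengthens the side chains of aliphatic glucosinolates, the sulfur-rich defence compounds of Brassicaceae. It had 19.3 and 50.5 CPM in B/HS, 20.1 and 19.1 CPM in A/HS, and 223 and 487 CPM in control. The 4 heat libraries stayed far under the lower control library, although the 2 control libraries differed by 2.19-fold. Its fitted log2 change was -2.93 (SE 0.50) after B/HS and -3.53 (SE 0.52) after A/HS, the lowest of the 8 in each regime. Its next-door member Bostr.10199s0144, which has no name here, had 0.55 and 1.77 CPM in B/HS, 0.60 and 2.33 CPM in A/HS, and 28.8 and 35.7 CPM in control.

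Of the carbohydrate genes, Bostr.18473s0262 is paired with *PHS2*, the cytosolic glucan phosphorylase of starch breakdown. It had 5.69 and 12.7 CPM in B/HS, 9.96 and 5.69 CPM in A/HS, and 50.6 and 57.3 CPM in control. Bostr.19424s0862, paired with *BGLU44*, a beta-glucosidase, had 14.9 and 22.8 CPM in B/HS, 15.9 and 23.0 CPM in A/HS, and 91.6 and 143 CPM in control. The regimes overlapped in both genes. Bostr.25494s0053, paired with AT1G09910 of the rhamnogalacturonate lyases, which cut pectin, had 6.06 and 6.89 CPM in B/HS, 6.57 and 6.98 CPM in A/HS, and 21.8 and 23.0 CPM in control. Its log2 changes of -1.38 (SE 0.32) after B/HS and -1.10 (SE 0.32) after A/HS were the smallest of the 8.

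Of the proteolytic genes, Bostr.28243s0024, paired with *LON2*, the Lon protease of peroxisomes, had 42.2 and 34.1 CPM in B/HS, 33.5 and 17.8 CPM in A/HS, and 215 and 130 CPM in control. Bostr.13129s0138, paired with *scpl35*, a serine carboxypeptidase-like gene, had 8.81 and 14.5 CPM in B/HS, 14.7 and 15.0 CPM in A/HS, and 81.6 and 68.0 CPM in control. For *LON2* both A/HS libraries were under both B/HS libraries by column totals, but with TMM-normalized CPM the regimes overlapped. For *scpl35* both were above them on either scale. In the fit the change between the regimes was -0.41 (SE 0.35) for the first and 0.57 (SE 0.33) for the second, and edgeR called neither (adjusted p = 0.616 and 0.448).

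Bostr.23794s0074, paired with AT2G39920, an acid phosphatase of the HAD superfamily, had 5.88 and 5.47 CPM in B/HS, 6.77 and 0.78 CPM in A/HS, and 33.0 and 52.3 CPM in control. Its A/HS libraries were the most unequal of the 8, at 34 and 3 counts. Bostr.2199s0046, paired with AT1G56140, a leucine-rich repeat receptor kinase, had 2.39 and 3.71 CPM in B/HS, 2.39 and 1.03 CPM in A/HS, and 11.9 and 20.7 CPM in control. It was the least abundant of the 8 in control. Receptor kinases, beta-glucosidases, carboxypeptidases and methylthioalkylmalate synthases have close relatives in the genome, so counts of AT1G56140, *BGLU44*, *scpl35* and *IMS2* and of their pairs are uncertain where reads could be split among copies. With TMM-normalized CPM in the rule 3 of the 8 still qualified, namely the pairs of *IMS2*, *PHS2* and AT2G39920.

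**Figure D3:**
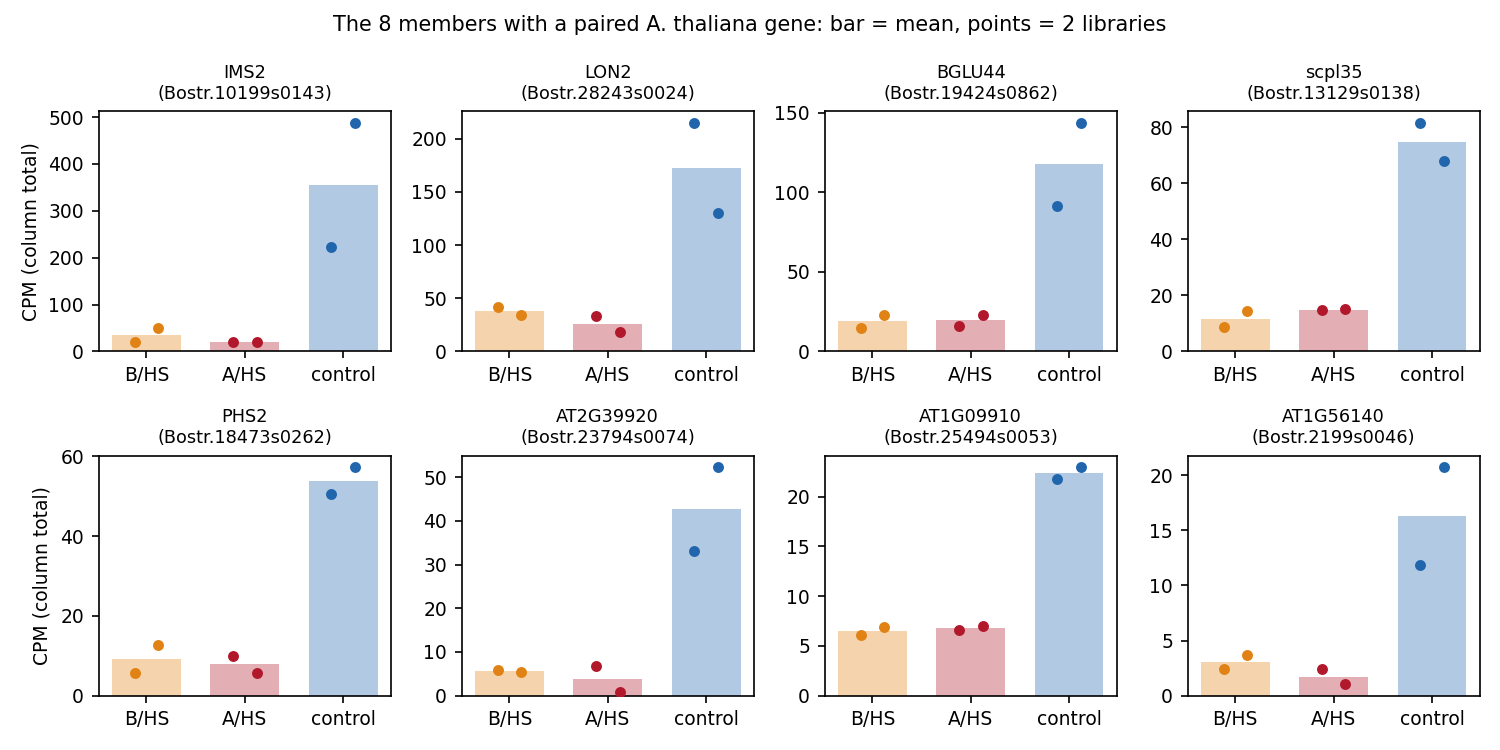
CPM of the 8 paired members in B/HS, A/HS and control, in order of mean control CPM (bars are means of 2 libraries, points are the libraries, each panel has its own linear axis from 0). In every panel the 4 heat points lie under both control points, from 223 and 487 CPM in control for the *IMS2* pair to 11.9 and 20.7 CPM for the AT1G56140 pair.

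The rule used no *A. thaliana* count, so the counterparts of the 8 members were tested in those libraries. The pairing itself came from the splicing table of the same study, and whether that choice bears on their levels was not tested. None of the 8 was called lower at an adjusted p under 0.05 and at least 4-fold, after B/HS (4.92% of all genes tested) or after A/HS (3.67%), by edgeR or by DESeq2. By an unadjusted edgeR p under 0.05, 5 differed after B/HS, all lower, and 5 after A/HS, 4 of them lower. With the adjusted p alone, edgeR called 4 of 8 lower after B/HS, where 19.7% of all tested genes were lower, and 3 of 8 after A/HS, where 17.6% were, and none higher. The 8 had a median log2 change of -0.61 after B/HS and -0.59 after A/HS, with 8 and 7 of 8 below 0. The other 1308 paired genes tested, with at least 10 CPM in both *B. depauperata* control libraries, had medians of 0.08 and 0.02. Of them 14.4% and 14.8% were lower, and they were not matched to the 8 in level. With 8 genes these counts stand as a description.

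The genes called lower are given next for each regime, and the regimes share their control libraries. *BGLU44* (TAIR10.1, chr3:6191461-6194452) had 18.9 and 19.4 TMM-normalized CPM in B/HS, 29.5 and 26.0 in A/HS, and 43.6 and 52.7 in control. All heat libraries were under both control libraries, and B/HS was under A/HS. The log2 change was -1.33 (SE 0.19, edgeR adjusted p = 0.000118) after B/HS and -0.80 (SE 0.18, adjusted p = 0.00471) after A/HS. *scpl35* (chr5:2657054-2661437) had 5.55 and 5.81 in B/HS, 8.03 and 6.84 in A/HS, and 12.8 and 14.7 in control, in the same order. Its log2 change was -1.28 (SE 0.21, adjusted p = 0.000433) after B/HS and -0.89 (SE 0.21, adjusted p = 0.00483) after A/HS. Both genes kept these calls in every alternative run.

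AT1G56140 (chr1:21001269-21007855) had 4.46 and 6.97 TMM-normalized CPM in B/HS, 10.1 and 8.42 in A/HS, and 15.1 and 15.8 in control. Again the heat libraries lay under the control libraries without overlap. Its log2 change was -1.42 (SE 0.24, edgeR adjusted p = 0.000397) after B/HS and -0.74 (SE 0.22, adjusted p = 0.0208) after A/HS. The call after A/HS was lost with DESeq2 (adjusted p = 0.0630), without either control library (0.0775 without the first, 0.0777 without the second) and without the second A/HS library (0.105).

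*PHS2* (chr3:17301394-17306633) had another order of libraries than its *B. depauperata* pair, whose place under control the rule had fixed. It had 44.6 and 39.9 TMM-normalized CPM in B/HS, 84.6 and 87.1 in A/HS, and 52.4 and 69.6 in control. Both B/HS libraries were under both control libraries and both A/HS libraries above them, whereas all 4 heat libraries of Bostr.18473s0262 were under control. The log2 change after B/HS was -0.53 (SE 0.20, edgeR adjusted p = 0.0465), a call lost with DESeq2 (0.0584), without the second control library (0.274) and without the first (0.141) or second (0.290) B/HS library. After A/HS it was 0.49 (SE 0.20, adjusted p = 0.0651). A/HS over B/HS was 1.02 (SE 0.20, adjusted p = 0.00638), the single call among the 8 between the regimes in *A. thaliana*, where 6.25% of all tested genes were called higher in A/HS. That call was lost without the first (0.0813) or the second (0.0828) B/HS library. In *B. depauperata* the A/HS over B/HS change of the pair was -0.04 (SE 0.39). The difference between the species was not tested.

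The other 4 counterparts were not called in either regime. *IMS2* (chr5:7718118-7721866) had 6.92 and 4.18 TMM-normalized CPM in B/HS, 3.94 and 6.62 in A/HS, and 6.90 and 7.12 in control. Its log2 change was -0.35 (SE 0.30, edgeR adjusted p = 0.373) after B/HS and -0.41 (SE 0.29, adjusted p = 0.293) after A/HS. One B/HS library lay between the control libraries. The gap in its *B. depauperata* pair was fixed by the choice of members, and the difference between the species was not tested. *LON2* (chr5:19092858-19098772) had 20.8 and 25.2 in B/HS, 22.0 and 14.7 in A/HS, and 29.4 and 23.0 in control. Its change after A/HS, -0.51 (SE 0.22), had an edgeR adjusted p of 0.0952, and of 0.0196 without the first A/HS library. AT1G09910 (chr1:3220035-3224541) had 2.37 and 2.01 in B/HS, 3.46 and 3.01 in A/HS, and 3.55 and 3.47 in control, with a log2 change of -0.68 (SE 0.31, adjusted p = 0.0955) after B/HS. AT2G39920 (chr2:16663017-16664539) had 12 and 20 counts in B/HS, 17 and 7 in A/HS, and 20 and 17 in control. Its changes of -0.06 after B/HS (SE 0.51, adjusted p = 0.942) and -0.68 after A/HS (SE 0.53, adjusted p = 0.336) had the widest errors of the 8, so a small change was not detectable at this depth.

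**Figure D4:**
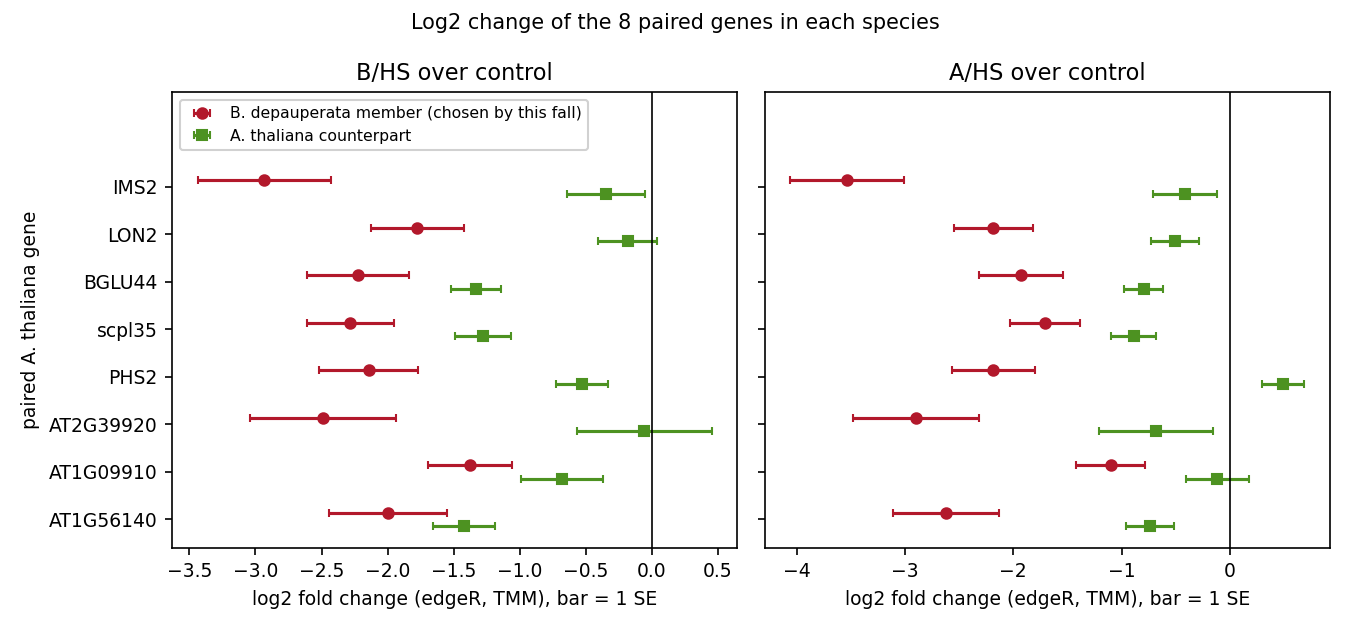
Log2 fold change over control after B/HS (left) and A/HS (right) for the 8 members in *B. depauperata* (red circles) and their counterparts in *A. thaliana* (green squares), with bars of 1 SE from the edgeR fits. The red values lie at or under -1.10 because low heat values chose these genes, while the green values run from -1.42 to 0.49 and *PHS2* after A/HS is the one above 0.

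The stretch upstream of the counterparts was read from the TAIR10.1 genome, since *A. thaliana* is the species whose genome was at hand. The 200 bases before each annotated gene start were searched on both strands for 4 elements. These were the G-box CACGTG (present in 5.637% of 27444 such windows), the heat shock element GAANNTTC (7.586%), the evening element AAAATATCT (1.924%) and the W-box TTGACC (10.37%). No matches overlapped in the 8 windows. The G-box was found in 1 of the 8 windows, that of AT2G39920, and the other 3 elements in 0 of 8, which says only that these letters are not there. The windows of *PHS2* and AT1G09910 overlap neighbouring genes, AT3G46980 and AT1G09920, so they are not wholly between genes. The windows of *scpl35* (chr5:2656854-2657053, + strand) and *BGLU44* (chr3:6191261-6191460, + strand) are shown because these genes kept their calls throughout, and that of AT2G39920 (chr2:16664540-16664739, - strand) because it holds the element, in capitals. Each is written 5′ to 3′ on the gene's strand.
scpl35: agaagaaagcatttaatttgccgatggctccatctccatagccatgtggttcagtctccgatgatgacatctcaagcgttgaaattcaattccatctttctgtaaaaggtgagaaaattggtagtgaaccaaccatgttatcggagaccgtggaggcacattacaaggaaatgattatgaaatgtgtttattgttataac
BGLU44: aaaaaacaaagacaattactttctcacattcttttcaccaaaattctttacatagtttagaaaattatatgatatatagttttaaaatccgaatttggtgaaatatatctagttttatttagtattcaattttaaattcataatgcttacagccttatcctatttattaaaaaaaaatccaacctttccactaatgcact
AT2G39920: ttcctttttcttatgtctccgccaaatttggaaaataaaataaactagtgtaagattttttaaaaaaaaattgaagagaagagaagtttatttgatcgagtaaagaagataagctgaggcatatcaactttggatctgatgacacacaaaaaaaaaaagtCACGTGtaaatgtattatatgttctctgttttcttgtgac

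The rule capped the values in all 4 heat libraries, so a gene that stayed high in either regime was left out, and how far A/HS and B/HS could part among the members was limited by that choice. The values of A/HS against B/HS are therefore a description, as are the edgeR and DESeq2 p-values beside them, and nothing about the members is read from their shares against other genes. edgeR called none of the 197 members, and 0.0% of the 17839 genes tested, at an adjusted p under 0.05 (lowest among members 0.196). At an unadjusted p under 0.05 there were 27 members (13.7%), 16 lower and 11 higher in A/HS, against 15.4% of all genes tested. DESeq2 called 2 members, against 1.96% of the genes it tested, and edgeR without a filter on low counts called 4, against 2.0% of the genes in that fit. The median change of the members was 0.04 on the log2 scale (range -2.42 to 3.56), with 92 below 0, 105 above 0 and 160 within 1 of 0.

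The 2 members that DESeq2 called, named here after their values were seen, were both lower in A/HS. Bostr.3053s0018 had 10.8 and 13.4 CPM in A/HS and 35.6 and 61.3 CPM in B/HS, with 436 and 270 CPM in control. Its A/HS over B/HS change was -1.76 (SE 0.43, adjusted p = 0.00969) with DESeq2, and -1.76 (SE 0.42, adjusted p = 0.205) with edgeR. Bostr.18351s0299 had 26 and 5 counts in A/HS and 74 and 79 counts in B/HS, with 508 and 377 counts in control, and a change of -1.91 (SE 0.55, adjusted p = 0.0351) with DESeq2. In both the order was A/HS under B/HS under control, with no overlap.

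By column-total CPM both A/HS libraries were under both B/HS libraries for 51 members (25.9%), against 31.0% of genes with at least 10 CPM in both control libraries, and above them for 26 (13.2%), against 11.5%. With TMM-normalized CPM the counts were 38 under (19.3%, against 24.2%) and 35 above (17.8%, against 22.9%), so the excess of lower over higher members rested on the scaling.

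The largest fitted changes between the regimes came from genes of few counts. Bostr.10199s0045 had 1.99 and 2.07 CPM in A/HS and 0.18 and 0.18 CPM in B/HS, with 13.0 and 11.9 CPM in control, which is 10 and 8 counts in A/HS and 1 and 1 in B/HS. Its change was 3.56 (SE 0.69, edgeR adjusted p = 0.196), and without the filter on low counts it was called (adjusted p = 0.0190, over alternatives 0.0190 to 0.600). Its libraries agreed closely within each group, but only 2 reads stand behind the B/HS side. The next 4 upward, Bostr.2618s0051, Bostr.29505s0002, Bostr.0597s0011 and Bostr.23794s0342, had changes of up to 2.67 and 0 counts in the second B/HS library. Without the first B/HS library, which leaves a count of 0 for that regime, their changes were 5.85 to 6.72, and without the second 1.07 to 1.65. That of Bostr.0597s0011 was 0.83 without the first A/HS library, and that of Bostr.23794s0342 was 1.37 without the second. Downward, Bostr.6864s0174 had 0.80 and 0 CPM in A/HS and 2.94 and 2.47 CPM in B/HS, with 15.5 and 17.1 CPM in control, a change of -2.42 (SE 0.75, adjusted p = 0.225) that was -7.15 without the first A/HS library and -1.74 without the second. Its neighbour Bostr.6864s0175 had 2.19 and 4.39 CPM in A/HS and 3.30 and 2.83 CPM in B/HS, with overlapping regimes. Bostr.13129s0205, Bostr.7128s0467, Bostr.25542s0166 and Bostr.26833s0873 followed with changes between -2.21 and -1.91. Single libraries set these values too. Bostr.7128s0467 was at -0.55 without the second B/HS library. Bostr.26833s0873 was at -5.72 without the first A/HS library and -1.27 without the second, and Bostr.13129s0205 was at -1.46 without the first A/HS library. Bostr.25542s0166 kept between -2.17 and -1.79.

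**Figure D5:**
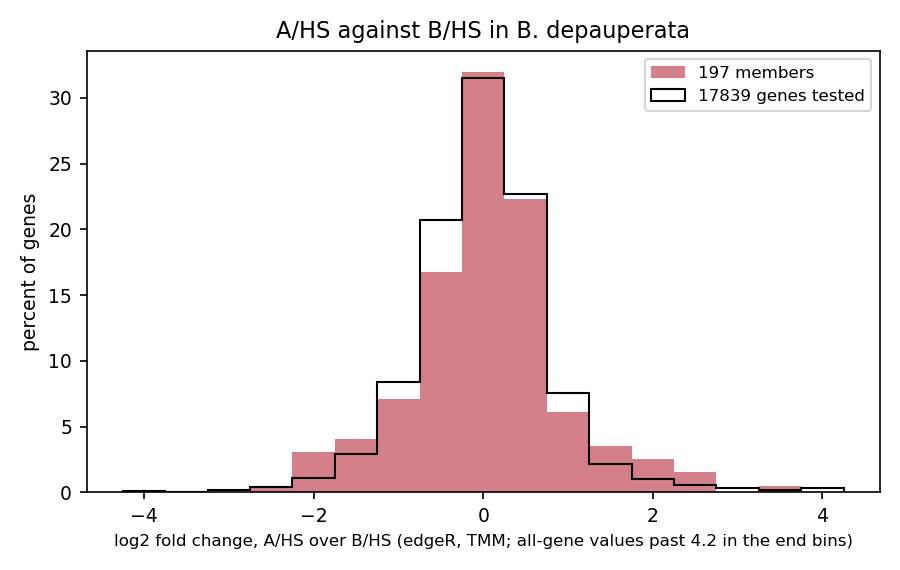
Distribution of the fitted log2 change of A/HS over B/HS in *B. depauperata*, as the percent of the 197 members (red) and of the 17839 genes tested (black outline, values past 4.2 in the end bins). Both centre near 0, with the members' median at 0.04 and their ends at -2.42 and 3.56.

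None of the paired genes in 6 lists of plant processes was a member. Members were 8 of the 1331 paired genes with at least 10 CPM in both control libraries. Few were thus to be found in lists this short, and nothing is read from their absence. Of 22 photosynthesis and plastid genes, 1 was called lower after B/HS (2.44% of all tested) and 8 after A/HS (7.32%) by edgeR at an adjusted p under 0.05, with median log2 changes of -0.49 and -0.97. *PNSB1*, a subunit of the chloroplast NDH complex, was lower after both, with a log2 change of -1.16 (SE 0.27, adjusted p = 0.0414) after B/HS and -2.30 (SE 0.29, adjusted p = 0.00350) after A/HS. *GLDP1*, the P protein of glycine decarboxylase in photorespiration, had 387 and 723 CPM in B/HS, 167 and 148 CPM in A/HS, and 2123 and 1271 CPM in control, which misses the ratio of 3 through the second B/HS library. Of 13 chaperone and heat shock factor genes 6 were higher after B/HS (4.84% of all tested) and 10 after A/HS (10.1%), and none lower. Of 17 clock and light genes 0 were lower and 4 higher after B/HS, and 2 lower and 3 higher after A/HS. The counts were 1 lower and 2 higher, then 2 lower and 3 higher, among 19 hormone and defence genes, and 0 lower and 1 higher, then 0 lower and 2 higher, among 8 splicing factors, in each case first after B/HS and then after A/HS. Of 13 cell wall, transport and lipid genes none was called after B/HS, and 2 were lower after A/HS.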

How the data were processed

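Root, as labelled, of *A. thaliana* and *B. depauperata* was sequenced in 12 libraries, 2 for each of 3 groups per species. The authors trimmed reads, mapped them with TopHat (1.4.1 in the submitters' processing notes, which also list DESeq2) to TAIR10 or the *B. stricta* genome, and deposited raw counts per gene. The counting program, strand setting and treatment of multiply mapped reads were not given in the sources used here. Sample groups came from the labelled temperature.

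From these counts, CPM by column total chose the members. The members and all gene lists were chosen with earlier results of these data known. Tests were edgeR 4.0.16 quasi-likelihood fits in R 4.3.3 (TMM, filterByExpr, all 6 libraries of a species, Benjamini-Hochberg over 17669 genes in *A. thaliana* and 17839 in *B. depauperata*), with SE as the size of the log2 change over the square root of F. Calls needed an adjusted p under 0.05, with or without a 4-fold change. DESeq2 1.42.0 (without shrinkage), RLE factors, no filter, organelle genes left out, the compared libraries only and each library left out were alternatives. The edgeR fits were run on simulated counts in which genes above a count minimum were lowered alike in both heat groups. Of 100 genes lowered 4-fold, 79 were called by adjusted p alone after B/HS and 74 after A/HS in *B. depauperata*. In *A. thaliana* all 100 were called by adjusted p alone after each regime. The median log2 changes of these genes lay between -2.00 and -1.96. Recovery with the added 4-fold threshold was not tested. The simulation did not cover changes in genes of few counts or between the regimes. Named genes were all paired members, the 10 highest in control, the 10 highest ratios, the 3 nearest each side of each threshold, and the 5 largest A/HS over B/HS changes each way, and others are marked in the text. The chi-square per degree of freedom between replicates was 8.44 to 35.0, so each library was counted as a sample of its own. Chloroplast and mitochondrial genes held 58.1% to 74.9% of *A. thaliana* counts. Totals of 3869082 to 15297546 counts set the precision, and with 2 libraries per group p-values rest on the spread shared across genes. Sequences were read from TAIR10.1, and gene positions are those of its annotation. Python 3.11.15 was used for the rest.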

Additional observations from a re-analysis of the deposited data

Results flagged for a closer look

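*PHS2* after A/HS was flagged because its libraries lay on opposite sides of control in the 2 species. The *A. thaliana* gene had a log2 change of 0.49 that edgeR did not call (adjusted p = 0.0651). Both its A/HS libraries were above both control libraries in TMM-normalized CPM. In its *B. depauperata* pair, Bostr.18473s0262, both A/HS libraries were under both control libraries. The difference was not tested, and the *B. depauperata* side was fixed by the choice of members. With column totals the *A. thaliana* A/HS and control libraries of *PHS2* overlapped.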

How the results depend on the processing

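The number of members, 197, became 64 with TMM-normalized CPM, 121 with a level minimum of 20 CPM, 708 with a ratio of 2 and 90 with a ratio of 4. It was 266 at 5 CPM, 190 with libraries thinned to the smallest total (169 shared) and 178 without the 3 most abundant genes, the last chosen after seeing the data. Leaving out 1 library gave 219 to 448: 448 without the first control library, 377 without the second and 382 without the second B/HS library. The 197 stay among them by construction. Dropping a library cannot lower a gene's lowest control CPM or raise its highest heat CPM. The calls between A/HS and B/HS, 0 with edgeR, were 2 with DESeq2 and 4 without a filter, and 0 with any library left out. The members' median change after A/HS, -2.24, was -2.83 with column totals (chosen after seeing the data) and -2.39 to -2.21 with a library left out, and after B/HS -2.18 became -2.58 and -2.35 to -2.12. Counterparts lower by adjusted p alone were 3 to 4 after B/HS and 2 to 4 after A/HS with a library left out, and 3 and 2 with DESeq2. Alternatives for the *PHS2* contrast of A/HS with B/HS were added after seeing the data. Over all values compared, 349 kept their side of the threshold or moved within the allowed spread, 10 moved, 2 gained a call and 10 lost one. For single genes the size of the change was not judged, so Bostr.6864s0174 counted as kept at -2.42 and at -7.15. Counts of 0 that stayed 0 are also among the 349, which is therefore no measure of stability. No called value changed sign, but 4 uncalled ones did: AT2G39920 after B/HS was 0.42 without the first control library and 0.14 without the first B/HS library, *LON2* after B/HS 0.02 without the first control library, and AT1G09910 after A/HS 0.00 (above 0) without the second A/HS library. With only the compared libraries fitted, 7 of the 10 members named for A/HS over B/HS fell under the filter. No paired analysis was possible because the labels give no replicate numbers. With 3 counts or fewer in up to 22 members of a library, low heat levels are set by few reads.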
